A study of Mus musculus with 40 samples.

Results

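The mitochondrial respiratory chain is described here through the nuclear genes that encode its subunits, in mouse mammary tumors treated with antibodies against PD-L1 and traps for TGF-β. Genes were chosen by symbol: protein-coding genes named Nduf followed by a, b, c, s or v and a number (complex I), Sdha to Sdhd (complex II), Uqcr (complex III), Cox5 to Cox8 with a following letter, Ndufa4, Ndufa4l2 and Cox7a2l (complex IV), and Atp5 (complex V, the ATP synthase). The rule took 82 of the 39012 genes in the table, of which 35 belonged to complex I, 4 to complex II, 8 to complex III, 18 to complex IV and 17 to complex V, and it left out assembly factors and 10 processed pseudogenes. The rule reads symbols only, and was proposed with earlier results of these data known. The symbols as spelled in the rule did not take Cox4i1, Cox4i2, Ndufab1 and Cyc1, which also encode subunits and were followed as a separate list.

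The study sequenced 40 libraries of total RNA from EMT-6 tumors. EMT-6 cells, an established carcinoma line of the mouse mammary gland, grew in the mammary pad of female Balb/C mice aged 8 to 12 weeks; host strain and tumor line were the same in all groups, and the labels name no engineered allele. Treatment was given intravenously on days 0, 1 and 2, starting 20 days after inoculation at a mean tumor volume near 400 mm3, and tumors were collected on day 6. The 4 groups of 10 received Inactive Anti-PD-L1 Isotype Control (400 µg), Anti-PDL1 (mut) /TGFβ Trap control (492 µg), in which a mutated antibody carries the TGF-β trap, Anti-PDL1 (400 µg), or Anti-PDL1/TGFβ Trap (492 µg), the bifunctional protein that joins both parts. Below they are called isotype control, trap control, anti-PD-L1 and bifunctional.

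The respiratory chain passes electrons from NADH through complex I, or from succinate through complex II, to complex III and then to oxygen at complex IV, and the proton gradient built on the way drives ATP synthesis by complex V. Most subunits are encoded in the nucleus and imported, while a small number of core subunits of complexes I, III, IV and V are made from the mitochondrion's own genome, so that assembly needs products of both genomes. Several complex IV subunits exist as a form made in most tissues and a form made mainly in heart and skeletal muscle. Nuclear regulators such as NRF1, GABP, YY1 and the estrogen-related receptors are known to act at many promoters of these genes.

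The promoters of the family were searched for short matches to the motifs of such regulators. RefSeq promoter windows (build GRCm38.p6, 250 bases before to 50 bases after a start site) were matched for 66 of the 82 genes; Ndufa2, Ndufb9, Ndufs1, Sdhc, Uqcrb, Uqcrc2, Uqcrq, Cox6a2, Cox6c, Cox8c, Ndufa4l2, Atp5a1, Atp5f1, Atp5mpl and Atp5s were among those with no window matched. Both strands were searched. The NRF1 letters GCATGCGC were found in 10 of the 66 windows (15.2%), against 2.8% of 27025 windows, 1 per gene, of the same length. The ETS letters CCGGAAG, the core bound by GABP, were found in 15 (22.7%, against 9.1%), the YY1 letters AAGATGGC in 8 (12.1%, against 2.9%) and the estrogen-related receptor letters AAGGTCA in 8 (12.1%, against 4.7%). In all, 32 windows (48.5%) held at least 1 of these 4 motifs, against 18.0% of all windows. All 8 YY1 matches of the family began 22 to 38 bases after the start site, where 41.1% of the 800 YY1 matches in all windows lay anywhere after it. The E-box letters CAGCTG were found in 9.1% of the family's windows and 16.1% of all, TATAAA in 10.6% and 14.2%, ACGTG in 24.2% and 19.7%, and the MEF2 letters CTATAAATA in 0 of 66 and 0.5%. A match is only a match of letters, and no link between matches and levels in the tumors was tested. Over the 250 bases before the start site, median GC content was 55.0% for the family's windows and 52.0% for all windows.

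The sequences show 1 example of each of 3 motif types among genes that fell with the bifunctional protein, and then the promoters of the ubiquitous and the muscle form of complex IV subunit 8. Each runs 5′ to 3′ on the gene's own strand over the 250 bases that end just before the RefSeq start site, and capitals mark matches to the NRF1, ETS, YY1, estrogen-related receptor, E-box and MEF2 letters. Ndufb2 (chr6:39592315-39592564, plus strand) holds the receptor letters, Ndufa11 (chr17:56717512-56717761, plus) holds NRF1 letters on both strands that overlap each other, and Sdhd (chr9:50603850-50604099, minus) holds ETS letters on the opposite strand. Cox8a (chr19:7217617-7217866, minus) has an ETS match that runs across the start site, so none lies whole in the printed bases, and Cox8b (chr7:140900447-140900696, minus) holds an E-box, and ACGTG on the opposite strand, which is not in capitals. The GC content was 52.8% for Cox8a and 47.2% for Cox8b.
Ndufb2: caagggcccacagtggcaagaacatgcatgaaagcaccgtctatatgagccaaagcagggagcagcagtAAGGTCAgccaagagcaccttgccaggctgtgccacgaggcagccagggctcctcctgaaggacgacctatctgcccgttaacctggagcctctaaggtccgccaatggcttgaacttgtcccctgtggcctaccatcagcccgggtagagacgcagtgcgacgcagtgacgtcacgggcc
Ndufa11: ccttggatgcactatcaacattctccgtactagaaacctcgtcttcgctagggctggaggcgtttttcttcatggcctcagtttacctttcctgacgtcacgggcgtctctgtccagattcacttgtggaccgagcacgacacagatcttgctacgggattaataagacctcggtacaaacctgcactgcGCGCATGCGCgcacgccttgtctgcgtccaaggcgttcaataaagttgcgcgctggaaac
Sdhd: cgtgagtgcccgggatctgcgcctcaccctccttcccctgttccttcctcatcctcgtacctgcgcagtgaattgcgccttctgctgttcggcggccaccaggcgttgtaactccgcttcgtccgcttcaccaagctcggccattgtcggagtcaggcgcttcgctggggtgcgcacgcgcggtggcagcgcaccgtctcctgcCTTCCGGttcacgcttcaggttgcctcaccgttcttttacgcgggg
Cox8a: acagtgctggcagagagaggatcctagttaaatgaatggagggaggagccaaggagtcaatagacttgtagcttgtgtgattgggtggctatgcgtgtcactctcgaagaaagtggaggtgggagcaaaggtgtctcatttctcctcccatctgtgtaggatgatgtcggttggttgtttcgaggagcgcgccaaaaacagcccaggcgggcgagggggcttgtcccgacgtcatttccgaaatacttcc
Cox8b: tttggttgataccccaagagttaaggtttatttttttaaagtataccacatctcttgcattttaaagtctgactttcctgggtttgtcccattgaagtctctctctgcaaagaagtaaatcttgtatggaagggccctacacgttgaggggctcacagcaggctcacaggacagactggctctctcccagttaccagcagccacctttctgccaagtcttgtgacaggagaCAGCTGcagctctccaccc

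The 40 libraries formed 2 runs by number, C0449 to C0464 (10 isotype control, 6 trap control) and C0465 to C0488 (4 trap control, 10 anti-PD-L1, 10 bifunctional), and were kept apart because RNAs of 7SL and mitochondrial ribosomes took 29.7% to 62.3% of counts in the first run and 11.7% to 18.0% in the second. The labels name no batch. Each library held between 13495835 and 27658263 expected counts, of which the family held 26134 to 205696. Markers of other tissue were uneven: summed skeletal muscle markers were 12800 CPM (counts scaled to library size) in trap control library C0463, 7690 CPM in C0484 and 3530 CPM in C0479, both bifunctional, and at most 755 CPM elsewhere. Keratinocyte markers summed to 2290 CPM in C0479 and at most 41.1 CPM in the other libraries of its run. In whole tumor pieces, fewer cells of a type and less RNA per cell cannot be told apart.

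Levels were compared between genes as TPM, which are scaled for transcript length as well as library size. In the 24 libraries C0465 to C0488, complex V held the largest share of the family's summed TPM (mean 38.5% ± 0.934 SD with anti-PD-L1, 38.2% ± 1.14 with the bifunctional protein, n = 10 each). Complex I followed at 25.7% ± 0.352 and 26.1% ± 0.606, complex IV at 22.9% ± 0.875 and 22.7% ± 0.532, complex III at 9.99% ± 0.395 and 9.91% ± 0.313, and complex II at 2.86% ± 0.288 and 3.02% ± 0.178. The shares of the complexes thus differed between these groups by less than the larger of the SDs, with no test run. Atp5b, the catalytic beta subunit of the ATP synthase, had the highest median of all at 406 TPM (278 to 515), well above the next gene, Cox6c at 102 TPM (79.9 to 130). Next in complex V were Atp5e at 99.6 TPM, a small subunit of the central stalk, and Atp5a1 at 87.7 TPM, the alpha subunit. Cox8a (96.5 TPM) and Ndufa4 (86.0 TPM), the latter named for complex I but known as a complex IV subunit, followed Cox6c in complex IV.

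Complex III was led by Uqcrb at 78.4 TPM, and its lowest gene was Uqcrq at 6.67 TPM, although both encode subunits of the same complex. Complex I ran from Ndufb8 at 51.1 TPM to Ndufa11 at 2.60 TPM, and the 4 genes of complex II lay close together, from Sdhc at 16.5 TPM to Sdha at 30.1 TPM. Atp5g2, one of 3 genes for the same membrane ring subunit, and the testis form Cox7b2 were listed at 0 in all 40 libraries. Atp5g1 and Atp5g3 were measured in all. Whether Atp5g2 was not expressed or was missed by the counting cannot be told from the deposited values.

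**Figure D1:**
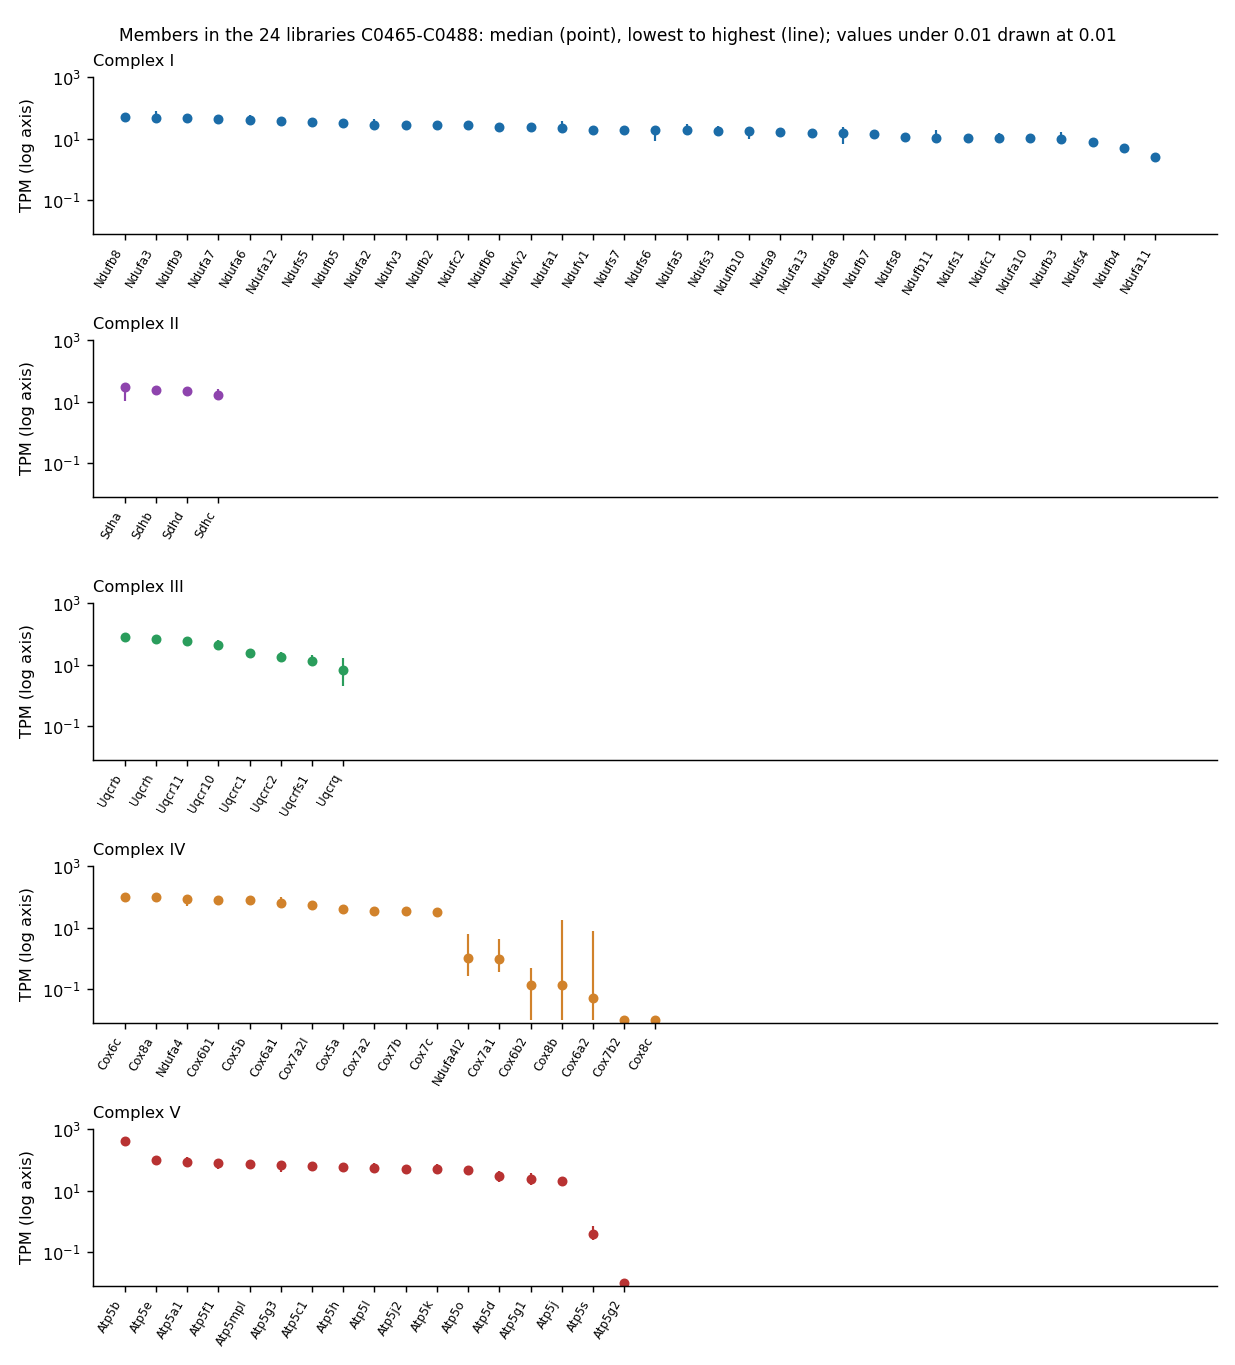
Median TPM (points) and the range from lowest to highest library (lines) of 81 genes over the 24 libraries C0465 to C0488, on a log axis, by complex. Atp5b stands highest at 406 TPM; the low end of complex IV holds the tissue-restricted forms Cox7a1, Cox6b2, Cox8b, Cox6a2, Cox7b2 and Cox8c, with Ndufa4l2.

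The comparison of treatments with the most calls was the bifunctional protein against anti-PD-L1, where the proteins differ by the TGF-β trap. Of 78 genes of the family that passed the filter on low counts, 38 fell and 2 rose (edgeR quasi-likelihood test, adjusted p under 0.05 over all genes). The falls made up 48.7% of the family, where 13.1% of all 15704 genes tested fell; the rises made up 2.56%, where 12.4% of all rose. The falls were small, with a median log2 fold change over the family of -0.21 (all genes 0.01), and 71 of 78 values were negative. The 40 calls were near the top of the range over the settings tried, and the sign of the median turned on the TPM scale (0.08 on log2(TPM + 1)). Leaving out 1 library at a time gave 16 calls without C0484, 18 each without C0479 and C0485, 26 without C0483, 20 without C0469, 22 each without C0470 and C0474, and up to 49 (without C0482). Calls over all genes moved too, from 4014 to 2172 without C0484 and 2141 without C0479. The family's median was -0.19 in both of these fits, and 19.5% and 22.1% of the family fell, against 7.29% and 8.49% of all genes.

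Every complex shared in it. Falls numbered 18 of 35 in complex I (median log2 fold change -0.21), 2 of 4 in complex II (-0.19), 4 of 8 in complex III (-0.21), 5 of 15 tested in complex IV (-0.19) and 9 of 16 tested in complex V (-0.23). Among 17 genes for catalytic core subunits, 12 fell (edgeR, median -0.24).

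In complex I, Ndufs1, the large iron-sulfur subunit of the electron-input arm, ran from 80.1 to 107 CPM (median 85.8) with anti-PD-L1 and from 64.2 to 81.8 CPM (median 73.9) with the bifunctional protein. All 10 bifunctional libraries lay at or below the anti-PD-L1 median, and the ranges met only at 80.1 to 81.8 CPM. Its log2 fold change was -0.27 (SE 0.06), with an adjusted p of 0.00553 in edgeR; on log2(TPM + 1) its sign turned (0.03). Ndufb2, an accessory membrane-arm subunit, ran from 24.7 to 45.6 CPM (median 30.2) and from 20.0 to 29.2 CPM (median 24.2). Its bifunctional libraries were again all at or below the other group's median, with overlapping ranges (log2 fold change -0.35, SE 0.09, edgeR adjusted p = 0.0116). Ndufs8, an iron-sulfur subunit, ran from 24.3 to 42.5 CPM (median 28) and from 16.9 to 28.1 CPM (median 24.6), with a log2 fold change of -0.35 (SE 0.10, edgeR adjusted p = 0.0145). Ndufv1, which binds NADH, fell by 0.28, Ndufv2 by 0.25 and Ndufs7 by 0.17, while Ndufs3 (-0.11, adjusted p = 0.200) and Ndufs6 (-0.01, adjusted p = 0.960) did not pass.

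In complex II, Sdhb, the iron-sulfur subunit, ran from 61.4 to 98.5 CPM (median 77.5) with anti-PD-L1 and from 52.4 to 73.9 CPM (median 63.7) with the bifunctional protein (log2 fold change -0.26, SE 0.08, edgeR adjusted p = 0.0230). All 10 bifunctional libraries lay at or below the anti-PD-L1 median, with overlapping ranges. Sdhd, a membrane anchor, fell by 0.24, and the other anchor gene, Sdhc, gave -0.13 (adjusted p = 0.148). Sdha, the flavoprotein that oxidises succinate, had medians of 160 and 154 CPM and a log2 fold change of -0.002 (SE 0.11, adjusted p = 0.990), so within 1 complex values differed by gene; the difference between genes was not tested. In complex III, Uqcr10, a small subunit, fell by 0.31, Uqcrb by 0.26, and the core proteins Uqcrc2 and Uqcrc1 by 0.21 each, while Uqcrfs1, the Rieske iron-sulfur protein, gave -0.12 (adjusted p = 0.192).

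In complex IV, Ndufa4 ran from 75.7 to 151 CPM (median 88.8) with anti-PD-L1 and from 55.4 to 91.1 CPM (median 69.4) with the bifunctional protein. The highest value, 151 CPM, was library C0469, and the ranges overlapped (log2 fold change -0.40, SE 0.11, edgeR adjusted p = 0.0166). Cox7a2, the ubiquitous form of subunit 7a, fell by 0.38 and Cox7c by 0.34, with Cox6c and Cox8a at -0.24 and -0.23. Cox5a (-0.12, adjusted p = 0.0938) and Cox5b (-0.21, adjusted p = 0.0559) did not pass. In complex V, Atp5g1, which encodes the ring subunit that turns with proton flow, ran from 29.3 to 49.5 CPM (median 36.3) and from 20.2 to 35.2 CPM (median 27.7). It had the largest fall of the family at 0.43 (SE 0.10, edgeR adjusted p = 0.00924), and all 10 bifunctional libraries lay at or below the anti-PD-L1 median. The peripheral stalk gene Atp5f1 fell by 0.34, Atp5b by 0.27 and Atp5a1 by 0.24, while the other ring gene measured, Atp5g3, gave -0.15 (adjusted p = 0.0864). Of the 38 genes that fell, 0 had ranges that did not overlap between the groups, against 1.31% of the 2063 genes of all kinds that fell; between 7 and 10 of the 10 bifunctional libraries lay at or below the anti-PD-L1 median for each. Values of some genes are uncertain because the authors' counting split reads between them and other genes: expected counts were not whole in at least 90% of the 40 libraries for Ndufs1, Ndufa12, Ndufb4, Ndufb6, Cox5a, Cox6c, Cox7c, Atp5b, Atp5f1, Atp5g1 and Atp5h, and in some library for 29 genes in all.

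**Figure D2:**
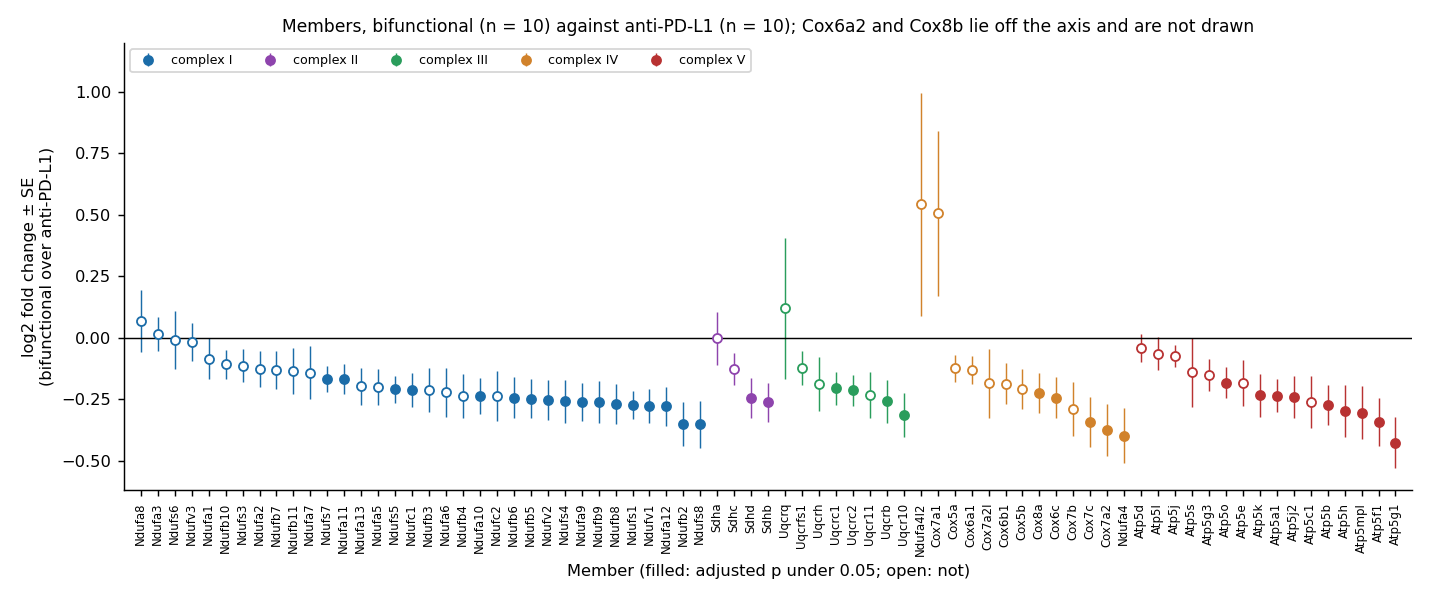
Log2 fold change, bifunctional (n = 10) over anti-PD-L1 (n = 10), of 75 genes with its SE (bars), grouped by complex and sorted; filled points passed the test, and Cox6a2 (3.68) and Cox8b (4.42) are not drawn. Most points lie between 0 and -0.43, with Ndufa4l2, Cox7a1 and Uqcrq above 0 and wide bars.

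The number of calls depended on single libraries. As a level for the whole family, the median over its genes of each library's log2 ratio to the mean of the run was taken. It ran from -0.13 to 0.47 (median 0.07) with anti-PD-L1, from -0.33 to 0.13 (median -0.11) with the bifunctional protein and from -0.07 to 0.10 in the 4 trap control libraries. The treated groups overlapped widely; C0469 (0.47) and C0470 (0.24) were the highest with anti-PD-L1, and C0479 (-0.33) was the lowest with the bifunctional protein, where C0482 (0.13) was the highest. Without C0479 and C0484, the bifunctional libraries rich in muscle RNA, 1 gene fell (Ndufs1, -0.24, edgeR adjusted p = 0.0242), while 69 of 76 values were negative with a median of -0.17; calls over all genes fell to 760, of which 470 were lower (3.04% of genes, against 1.32% of the family). Without C0469 and C0470, 4 fell (Ndufs1, Ndufv1, Ndufb2 and Atp5g1) and Cox6a2 and Cox8b rose, with a median of -0.13; the falls were 5.13% of the family and 5.45% of all genes, so near the share of all. Without all 4, 0 passed (edgeR; lowest adjusted p = 0.0545, for Ndufs1, and 20 at an unadjusted p under 0.05), 70 of 76 values were negative and the median was -0.11, with 189 calls over all genes. With the muscle markers' score as a covariate, 2 genes passed, Ndufs1 and Atp5g1. The family's median was -0.18, with 72 of 78 values negative, and 43 genes had an unadjusted p under 0.05 in edgeR. The share of all genes at that level was not counted, so neither the 43 nor the 20 has a background here. Calls over all genes were 199 up and 545 down in that fit, against 1951 up and 2063 down without the covariate. The falls in that fit were 2.56% of the family and 3.47% of all genes. The part of muscle RNA in the family's result was not tested.

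The direction also depended on scale: log2(TPM + 1), tested with limma, gave a positive median of 0.08 with 69 of 78 values above 0 and 1 call, a rise of Ndufa3 (0.29, adjusted p = 0.0475; 5 genes at an unadjusted p under 0.05), where the median of all genes tested was 0.15 and their calls were 3043 up and 43 down. On both scales the family's median lay below that of all genes, by 0.23 on the scaled counts and by 0.07 on log2(TPM + 1). Transcript length moved with the result. Of the 78 genes, 75 were shorter than the median gene tested, and across 15692 genes, which are not independent, length and log2 fold change had a Spearman rho of 0.22. Across genes within C0469 length and the log ratio to the run's mean had a rho of -0.44, in C0470 -0.25, in C0482 -0.22 and in C0479 0.19. With a smooth length trend removed from each library, 15 genes fell (19.2%, against 11.3% of all genes) and 2 rose (2.56%, against 12.1%), with a median of -0.09 (all genes 0.02) and 59 negative values. The lowest adjusted p of the family in that fit was that of Ndufs1, which fell by 0.28 (edgeR adjusted p = 0.00697). Median relative length was 0.233 for the family and 0.987 for all genes tested. The part of length in the result was not tested.

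**Figure D3:**
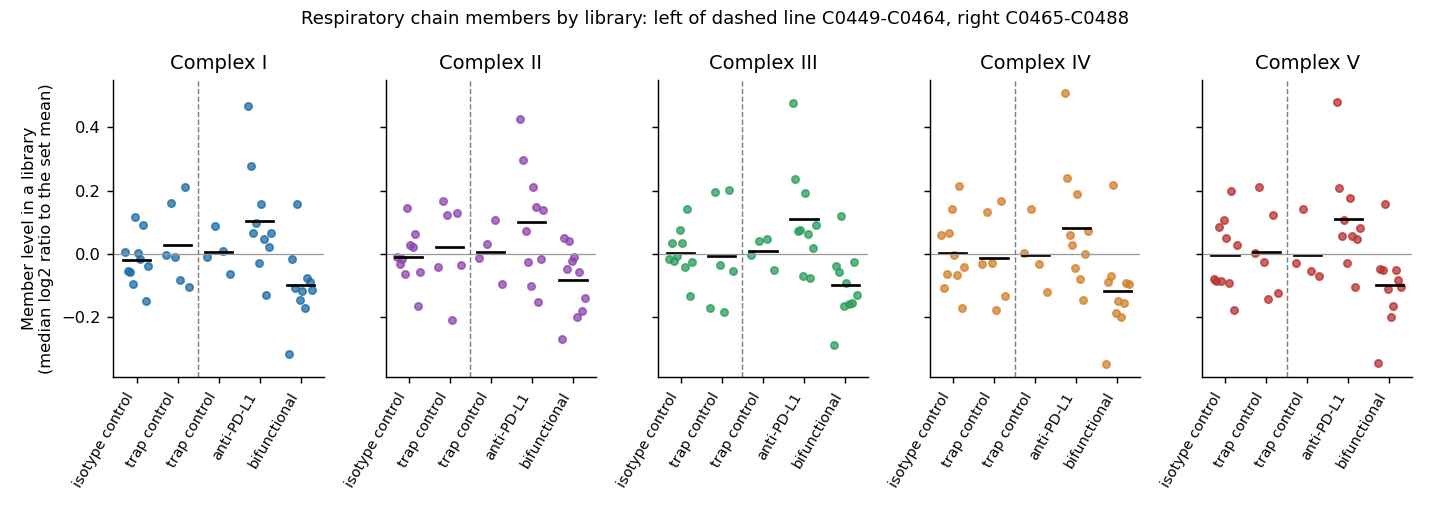
Level of each complex in each library (points: median over its genes of the log2 ratio to the mean of that run of libraries; bars: group means), with the runs separated by a dashed line. C0469 is the highest anti-PD-L1 point in each panel, between 0.43 and 0.51, and the bifunctional points lie lower on average but overlap the others.

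The only rises were the muscle forms of complex IV subunits 6a and 8. Cox6a2 had 0 to 9 reads (0 to 0.367 CPM, median 0.0588) in the anti-PD-L1 libraries. In the bifunctional libraries it had 1 to 216 reads (0.0394 to 8.03 CPM, median 0.148), with 8.03 CPM in C0484, 3.77 CPM in C0479 and at most 0.490 CPM in the other 8. The groups overlapped apart from those 2 libraries (log2 fold change 3.68, SE 1.00, edgeR adjusted p = 0.0145). Cox8b likewise had 0 to 6 reads (0 to 0.245 CPM) with anti-PD-L1, and 6.95 CPM in C0484, 3.73 CPM in C0479 and at most 0.592 CPM in the other bifunctional libraries (log2 fold change 4.42, SE 1.10, edgeR adjusted p = 0.0103). Without C0479 and C0484 neither gene passed the filter on low counts. Both were also high in C0463, a trap control library of the first run (9.24 and 3.10 CPM), while the other libraries of that run had at most 0.271 and 0.0681 CPM. These are the libraries with the highest muscle markers of their runs. Ckm, muscle creatine kinase, was 539 CPM in C0463, 454.1 CPM in C0484 and 192 CPM in C0479. Summed adipocyte markers were also raised, to 1380 CPM in C0484, the highest of its run, and 331 CPM in C0479. Trap control library C0467, with 5.72 CPM of muscle and 533 CPM of adipocyte markers, had 34 reads of Cox8b and 1 of Cox6a2. Which tissue gave these reads was not tested.

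As a share of both forms' TPM, Cox6a2 made up 18.7% of Cox6a1 plus Cox6a2 in C0463 and at most 7.26% in the bifunctional group, with group medians of 0.0631% to 0.191% in all 5 sets of libraries. Cox7a1, the muscle form of subunit 7a, had medians of 0.47 CPM with anti-PD-L1 and 0.555 CPM with the bifunctional protein. Its highest values in the second run were again in C0484 (1.67 CPM) and C0479 (1.5 CPM), and in the first run in C0463 (1.19 CPM), and it did not pass the test (log2 fold change 0.51, SE 0.34, edgeR adjusted p = 0.260). Ndufa4l2, the paralog of Ndufa4 that is known to be induced by hypoxia, varied widely within groups, from 0.908 to 11 CPM with anti-PD-L1 and from 1.21 to 13.4 CPM with the bifunctional protein (log2 fold change 0.54, SE 0.45, edgeR adjusted p = 0.374). It overlaps Shmt2, a gene on the other strand, and the strand setting of the counting is not given in the sources used here.

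**Figure D4:**
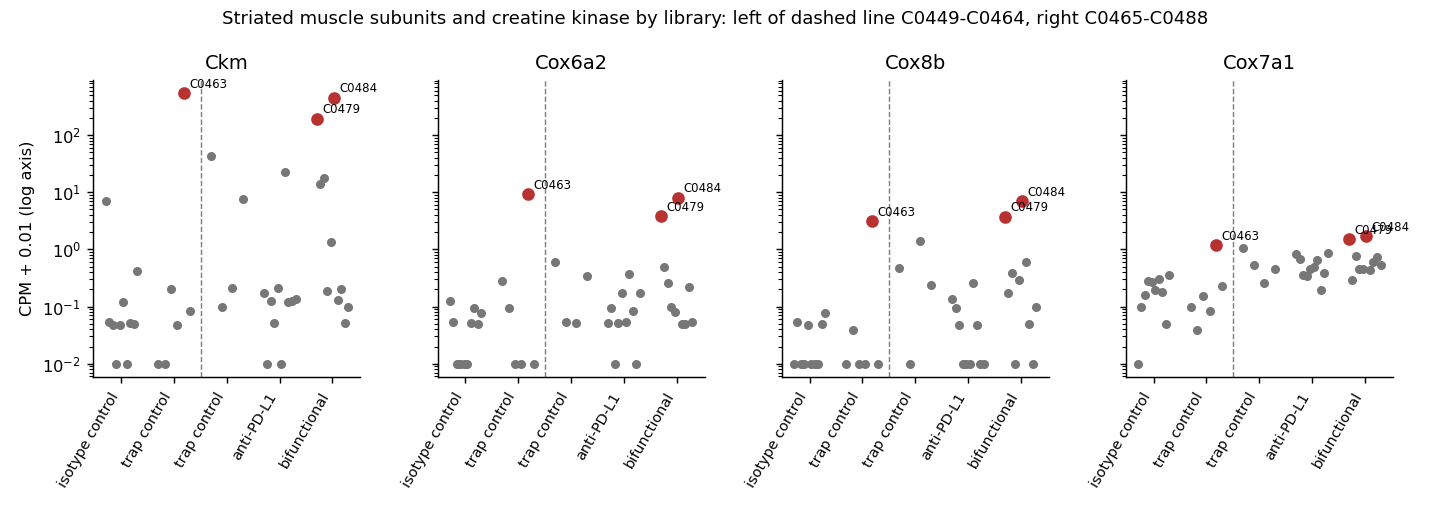
CPM + 0.01 on a log axis of the muscle creatine kinase Ckm and the muscle forms Cox6a2, Cox8b and Cox7a1 in each of 40 libraries, by group, with runs separated by a dashed line and scaled separately. In red, C0463 is the highest of its run, and C0479 and C0484 are the highest of theirs, in all 4 panels.

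Other mitochondrial genes were called in the same comparison, where 13.1% of all genes tested fell and 12.4% rose. How far the calls below depended on single libraries is not given here. Of 5 genes of the chain outside the rule 2 fell, Cox4i1 (-0.27, edgeR adjusted p = 0.0326), a complex IV subunit, and Cycs (-0.39, adjusted p = 0.00873), which encodes the carrier cytochrome c. Of 46 assembly factors, which build the complexes without being part of them, 14 fell (median log2 fold change -0.17); Atpaf2, for complex V, gave -0.36 and Ndufaf2, for complex I, -0.38. Of 17 genes for mitochondrial membrane and import proteins 12 fell (median -0.27), among them Phb (-0.51), a scaffold of the inner membrane, and Slc25a4 (-0.35), which exchanges ADP for ATP. Of 16 citric acid cycle genes 6 fell (median -0.13). The 13 messenger RNAs of the mitochondrial genome went the other way, with 3 rises (mt-Nd4l 0.73, mt-Nd4 0.53 and mt-Atp8 0.43) and a median of 0.25. Of 13 measured regulators 3 fell, Nrf1 (-0.19), Tfam (-0.25) and Gabpb1 (-0.15), and Esrra gave -0.05 (adjusted p = 0.594). Of 14 hypoxia and glycolysis genes 0 passed in edgeR (1 at an unadjusted p under 0.05), Ldha giving -0.12 (adjusted p = 0.344).

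Markers of other cells moved in these libraries too, where 12.4% of all genes rose and 13.1% fell. Of 14 skeletal muscle genes 13 rose (median 4.38), and of 9 leukocyte genes 7 rose (median 0.70, Gzmb 1.99, Prf1 2.02). Of 8 proliferation genes 6 fell (median -0.42). Summed leukocyte markers ran from 312 to 513 CPM with anti-PD-L1 and from 411 to 798 CPM with the bifunctional protein, and summed proliferation markers from 1330 to 1580 CPM and from 799 to 1400 CPM. Their part in the family's result was not tested.

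Against the 4 trap control libraries of the same run, no gene of the family passed the threshold for either treatment. The question was what the working antibody arm adds to the trap, and how anti-PD-L1 alone compares with the trap alone. For the bifunctional protein 0 of 78 passed in edgeR, where 0.00637% of all genes rose and 0% fell. In DESeq2 0 of 78 passed too, where 0.191% of all genes rose and 1.17% fell. In edgeR 10 had an unadjusted p under 0.05. The median log2 fold change was -0.11, with 60 negative values. For anti-PD-L1 0 of 78 passed in edgeR, where 0% of all genes rose and 0.0127% fell. In DESeq2 0 of 78 passed too, where 0% of all genes rose and 0.0191% fell. In edgeR 6 had an unadjusted p under 0.05. The median was 0.09, with 64 positive values. For neither treatment was the share of all genes at an unadjusted p counted, so the 10 and 6 have no background here. These comparisons share libraries with each other and with the previous one, so their values are only set side by side. Atp5g1 gave -0.42 (SE 0.13) for the bifunctional protein and 0.01 (SE 0.14) for anti-PD-L1 against trap control, where its CPM ran from 31.4 to 46.2. Ndufs1 gave -0.16 (SE 0.08) and 0.11 (SE 0.08), with trap control at 77.2 to 87.7 CPM, and Ndufa4 gave -0.23 (SE 0.15) and 0.17 (SE 0.15), with trap control at 68.6 to 94.8 CPM. For these 3 genes the trap control libraries overlapped both treated groups. On log2(TPM + 1) both medians changed sign, to 0.08 and -0.005, and without C0469 and C0470 the median for anti-PD-L1 was 0.02.

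The trap control was compared with the isotype control within C0449 to C0464, where the question is the effect of TGF-β trapping alone. Of 75 genes tested 2 rose and 2 fell (edgeR), that is 2.67% in each direction, where 3.19% of all genes rose and 4.15% fell, so the share of the family was near that of all genes. The median log2 fold change was 0.04, with 45 positive and 30 negative values. Ndufb7, an accessory complex I subunit, ran from 6.72 to 9.09 CPM (median 7.29) in the isotype control and from 7.58 to 11.4 CPM (median 9.81) in 6 trap control libraries (log2 fold change 0.40, SE 0.09, edgeR adjusted p = 0.0215). Ndufs7, an iron-sulfur subunit next to the quinone site, ran from 10.3 to 14.8 CPM (median 13.0) and from 13.6 to 21.1 CPM (median 15.5), with a log2 fold change of 0.34 (SE 0.10, edgeR adjusted p = 0.0453). For both genes all 6 trap control libraries lay above the isotype median, with overlapping ranges.

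Cox7b ran from 32.7 to 53.4 CPM (median 41.0) and from 26.4 to 35.7 CPM (median 32.2), a log2 fold change of -0.38 (SE 0.10, edgeR adjusted p = 0.0363). Atp5l, the complex V subunit g, ran from 23.4 to 35.5 CPM (median 32.6) and from 18.1 to 27.7 CPM (median 23.2), a log2 fold change of -0.44 (SE 0.11, edgeR adjusted p = 0.0314). All 6 trap control libraries lay below the isotype medians for both. Leaving out 1 library at a time left between 1 and 7 genes called: 1 without C0450, C0451, C0460, C0461 or C0462, 2 without C0452, C0453, C0454 or C0463, and 7 without C0456. Calls over all genes moved too, from 1041 to 421 without C0460 and 1381 without C0456. Without C0456, 4% of the family fell and 5.33% rose, against 5.88% and 3.88% of all genes. Without C0460, 1.33% fell and 0% rose, against 1.77% and 1.18%.

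The same trap control treatment was present in both runs, 6 libraries in one and 4 in the other, so their comparison measures how far the runs differ for this family. Of 75 genes tested, 61 were lower in the first run and 1 was higher (edgeR), or 81.3% and 1.33%, where 23.3% of all genes were lower and 25.1% higher; the median log2 fold change was -0.56 (all genes -0.01). On log2(TPM + 1) the median was -1.75, with 74 lower, and that of all genes -0.65. All 4 complex II genes, 7 of 8 in complex III, 28 of 35 in complex I, 10 of 12 in complex IV and 12 of 16 in complex V were lower, and for 50 of the 61 (82.0%) the ranges did not overlap, as for 70.4% of all 3370 genes that were lower. With 1 scaling for the 10 libraries, Cox7c ran from 6.78 to 13.2 CPM in the first run and from 21.7 to 27.4 CPM in the second (log2 fold change -1.23, SE 0.16, edgeR adjusted p = 0.000165). Ndufa12 ran from 9.95 to 17.4 CPM and from 30.3 to 33.7 CPM (-1.22, SE 0.14), Ndufa9 from 18.0 to 25.7 CPM and from 40.6 to 49.3 CPM (-1.01, SE 0.11), and Atp5b from 430 to 621 CPM and from 818 to 1013 CPM (-0.84, SE 0.13).

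Uqcrq was the exception, at 5.87 to 14.6 CPM in the first run and 2.45 to 5.39 CPM in the second (log2 fold change 1.54, SE 0.28, edgeR adjusted p = 0.00118). The ranges did not overlap for any of these 5 genes, while those of Ndufa4l2 did (0 to 2.25 CPM and 1.33 to 3.52 CPM, log2 fold change -1.58, SE 0.61, edgeR adjusted p = 0.0492). All 17 catalytic core genes were lower (median -0.65). All 13 mitochondrial genome messenger RNAs were higher in the first run (median 3.13), opposite to the nuclear genes of the same complexes. Library run and any unlabelled difference between the mice of the runs cannot be told apart, and no treatment was compared across runs.

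**Figure D5:**
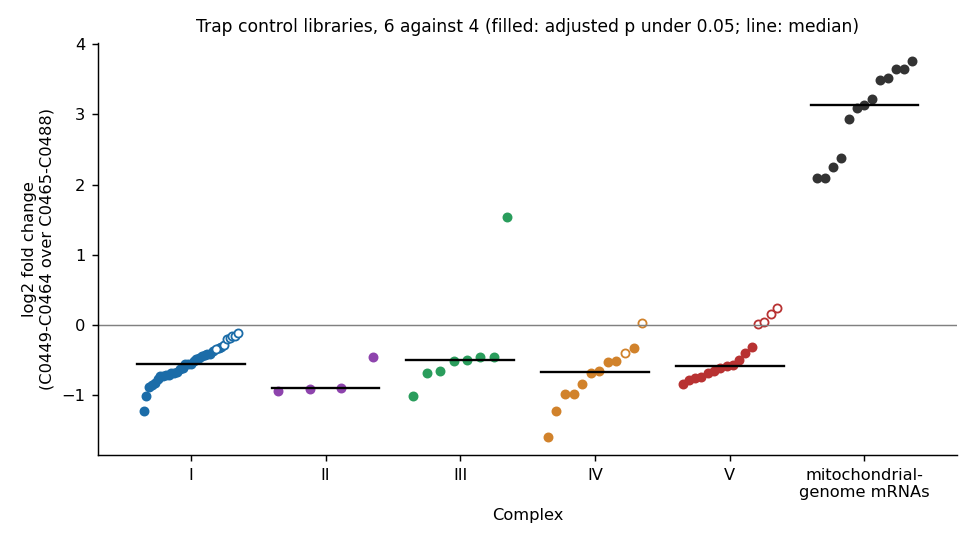
Log2 fold change of trap control libraries C0459 to C0464 (n = 6) over C0465 to C0468 (n = 4) for 75 nuclear genes by complex and for 13 mitochondrial genome messenger RNAs; filled points passed the test and lines are medians. Nuclear genes centre on -0.56 and mitochondrial ones on 3.13, with Uqcrq alone above 1 among the nuclear genes.

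Within groups the genes of the family rose and fell together from tumor to tumor. With group means removed, the median pairwise Pearson r over 24 libraries of C0465 to C0488 was 0.574 for 75 genes, against -0.002 for all 13480 genes with a mean of at least 1 CPM; all pairs share libraries and scaling, so this is a description. It was highest within complex IV (0.701), 0.555 within complex I, 0.523 within complex III, 0.497 within complex V and 0.224 among the 4 genes of complex II. Between the family and mitochondrial genome messenger RNAs it was -0.205. In the 16 libraries of the first run the family's value was 0.376 and the order differed: 0.388 within complex V, 0.382 within I, 0.367 within III, 0.361 within II and 0.286 within IV, with 0.00719 between the family and mitochondrial genome messenger RNAs. Atp5o (0.797) and Cox5b (0.778) had the highest median r with the rest of the family in C0465 to C0488. Of the 78 genes tested in that run, 75 were shorter than the median gene. Its libraries differed in how length went with level, from a Spearman rho of -0.44 in C0469 to 0.23 in C0485. The family's level in these was 0.47 and -0.18. The part of length in the shared variation was not tested.

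Ndufa8 (-0.503), Sdha (-0.447), Uqcrq (-0.392) and Ndufs6 (-0.389) had the lowest median r in C0465 to C0488, and were singled out after their values were seen. Sdha was 99.4 CPM in C0469 and 90.6 CPM in C0470, the libraries where the family stood highest, and 133 to 204 CPM in the other 22. Ndufa8 was lowest in C0470 (18.3 CPM), C0474 (20.4 CPM) and C0466 (22.0 CPM), and reached 39.2 CPM in C0471. The family's median coefficient of variation within a group was 15.1% with anti-PD-L1, against 15.2% for all genes, 12.4% against 17.2% with the bifunctional protein, 11.9% against 15% in the isotype control, and 14.3% against 17.1% and 7.62% against 12.6% in the trap control of the first and second run. These differences were not tested.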

How the data were processed

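Total RNA of 40 tumors was sequenced after ribosomal depletion with random priming, per the labels' protocols. The authors deposited expected counts and TPM per gene; RSEM 1.2.31, Bowtie2 2.3.1 and the build mm10 are named per the submitters' processing notes, and the annotation release and the strand setting are not given in the sources used here. Expected counts, as deposited, split reads shared between genes (14.0% of values were not whole) and were rounded. TPM values, as deposited, were used for levels between genes and as an alternative scale. Symbols came from GENCODE M21 (37607 of 39012 identifiers, 96.4%).

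Libraries C0449 to C0464 and C0465 to C0488 were fitted separately with edgeR 4.0.16 (quasi-likelihood F test, two-sided, TMM, filterByExpr), with Benjamini-Hochberg adjustment over all genes tested and a threshold of 0.05; the second fit held all 3 of its groups. CPM are TMM-scaled within a fit and cannot be compared across fits. DESeq2 1.42.0 and limma 3.58.1 on log2(TPM + 1) served as alternatives, and the scripts were tested on simulated data. P-values test a difference between groups against the spread between tumors within groups, of which the 3 groups of the second fit shared an estimate. Counts at an unadjusted p under 0.05 are given without the share of all genes, which was not counted. The members and lists were chosen with earlier results of these data known, by rules on symbols; genes named with values were the catalytic core genes, tissue isoforms, the largest passing changes, the highest and lowest TPM of each complex, and a small number singled out afterwards, as stated there. The values of 1 member are not reported here on their own and are left out of the figures that name genes; counts and medians over the family include it.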

Additional observations from a re-analysis of the deposited data

Results flagged for a closer look

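In 14 of 88 groups of values tested, 1 library stood apart from the other libraries of its treatment group by Dixon's test. Only genes reaching 1 CPM in at least 1 library of a group were tested, a floor set after a first look at the data. A single high library could thus admit a gene, as C0463 did for Cox6a2, Cox8b and Cox7a1. The groups also share libraries, so the 14 cannot be set against the 1 in 20 that chance would give. The 14 came from 7 libraries. Bifunctional library C0482 was high in the complex IV level (0.219, others -0.346 to -0.0701), Cox6b1 (96.8 CPM, others 71.5 to 80.7), Cox7b (103 CPM, others 58.1 to 80.6) and Cox8a (130 CPM, others 80.2 to 102). Anti-PD-L1 library C0469 was high in the complex V level (0.481, others -0.103 to 0.208), Cox6a1 (103 CPM, others 69.5 to 81.7) and Ndufa4 (151 CPM, others 75.7 to 101).

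The muscle forms stood apart in trap control library C0463, with Cox6a2 at 9.24 CPM (others 0 to 0.271), Cox8b at 3.1 CPM (others 0 to 0.0286) and Cox7a1 at 1.19 CPM (others 0.0286 to 0.222), and in bifunctional library C0484, with Cox6a2 at 8.03 CPM (others 0.0394 to 3.77). Ndufa4l2 was 11 CPM in anti-PD-L1 library C0478 (others 0.908 to 4.69) and 13.4 CPM in bifunctional library C0479 (others 1.21 to 6.54). Cox7b was 94.4 CPM in trap control library C0466 (others 74.9 to 76.4).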

How the results depend on the processing

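The count of genes called for the bifunctional protein against anti-PD-L1, 40 in the fit reported, was 22 with a mean of at least 1 CPM, 17 with the length trend removed, 2 with the muscle score as covariate (median -0.179, 72 of 78 negative, against -0.212 and 71), 26 with all 40 libraries and a set term, 21 with only both groups compared, 1 on log2(TPM + 1) and 1 on log2(TPM + 0.1). Before the TPM scales, the falls in that order were 29.3%, 19.2%, 2.56%, 34.2% and 27.6% of the family. Of all genes 10.9%, 11.3%, 3.47%, 10.1% and 10.8% fell in those fits. On both TPM scales 0% of the family fell and 1.28% rose. Of all genes 0.274% and 0.293% fell there, and 19.4% and 19.8% rose. The count was 1 without C0479 and C0484, 6 without C0469 and C0470, and 0 without all 4 (edgeR, 20 at an unadjusted p under 0.05, with no share of all genes counted). The falls in these fits were 1.32%, 5.13% and 0% of the family, against 3.04%, 5.45% and 0.721% of all genes. Leaving out 1 library gave from 16 calls (without C0484) to 49 (without C0482). Falls there were 19.5% and 60.3% of the family, against 7.29% and 16% of all genes. Leave-outs of single libraries in this comparison, and of C0469 and C0470, were chosen after seeing the data. So were those of single libraries for trap control against isotype control, and of first-run libraries between the trap control runs. The cause was not tested, beyond the fewer samples or genes in some fits. For trap control against isotype control the count of 4 was 2 without a filter, 8 by DESeq2, 0 on both TPM scales (limma), 2 with the muscle score, 8 with all 40 libraries, and 1 to 7 leaving out 1 library. By DESeq2 5.33% of the family fell and 5.33% rose, against 6.71% and 5.22% of all genes. With the muscle score 1.33% fell and 1.33% rose, against 2.94% and 2.36%. With all 40 libraries 5.26% fell and 5.26% rose, against 5.86% and 4.47%. Without a filter 1.25% fell and 1.25% rose, against 0.878% and 0.598%. On each TPM scale only 2 of all 14183 genes were called.

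On both log2(TPM + 1) and log2(TPM + 0.1), 69 of 78 genes were positive for the bifunctional protein against anti-PD-L1, where 7 were positive in the fit reported. Signs were followed gene by gene only for catalytic core genes, tissue isoforms and the largest changes that had passed. Of those, these turned positive: Ndufv1 (0.0285, 0.0293), Ndufv2 (0.028, 0.0285), Ndufs1 (0.0264, 0.0274), Ndufs7 (0.123, 0.128), Sdhb (0.0371, 0.0379), Sdhd (0.0582, 0.0602), Uqcrc1 (0.0943, 0.0977), Uqcrc2 (0.0832, 0.0865), Cox8a (0.0533, 0.0537), Atp5a1 (0.0616, 0.0622) and Atp5b (0.0726, 0.0728). Counts between the trap control runs stayed within 1.5 times of 62 in all 19 alternatives. No paired analysis was possible because the groups share no library numbers.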
